A study of Rattus norvegicus with 4 samples.

Results

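The genes described here are the 10 enzymes of serine synthesis and of the folate cycle that interconverts serine, glycine and one-carbon units. They were taken from the table by gene symbol, as enzymes of these pathways, with earlier results of these data known: Phgdh, Psat1 and Psph of serine synthesis, Shmt2, Mthfd2, Mthfd2l, Mthfd1l and Aldh1l2 of the mitochondrial folate arm, and Shmt1 and Mthfd1 of the cytosolic arm. All 10 were found among the 16290 genes of the deposited table, and all 10 passed the filter on low values, a normalised count of at least 10 in at least 2 libraries. RNA was sequenced from cardiomyocytes of newborn rats, the contractile cells of the heart, isolated on postnatal day 3 and cultured. One group of 2 libraries (Mock 1 and Mock 2) received an adenovirus encoding mock, and the other 2 (Pdk3 1 and Pdk3 2) an adenovirus encoding Pdk3, a kinase that inhibits the pyruvate dehydrogenase complex. Both groups thus carried the viral vector, and all cells were grown in medium with horse serum, glutamine and pyruvate. The labels do not name the promoter of the vector, nor do they say that the 2 libraries of a group derive from different cultures. The p-values therefore describe the scatter of these 4 libraries alone, which may be technical.

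Serine is made from the glycolytic intermediate 3-phosphoglycerate by the successive action of the dehydrogenase PHGDH, the aminotransferase PSAT1 and the phosphatase PSPH. Serine hydroxymethyltransferases then pass a carbon of serine to tetrahydrofolate, SHMT2 in mitochondria and SHMT1 in the cytosol. In mitochondria, MTHFD2 or MTHFD2L oxidises the one-carbon unit and MTHFD1L releases it as formate, which crosses to the cytosol. There the trifunctional enzyme MTHFD1 loads formate back onto folate for the synthesis of purines and thymidylate. ALDH1L2 instead burns the mitochondrial unit to carbon dioxide and yields NADPH.

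Of the 10 enzymes, 5 were higher in the Pdk3 libraries and 0 were lower (limma over the whole table, Benjamini-Hochberg adjusted p under 0.05). By the same rule, 11.7% of the 12838 genes tested were higher and 11.3% were lower. The 5 that rose stood in all 3 branches, beside members of the same branch that did not pass, and the same 5 rose with TMM scaling and with ribosomal protein genes level. Under that last scaling 7.26% of all genes were higher and 23.1% lower, and with TMM scaling 1843 of the 12838 were higher and 1503 lower. In the mitochondrial arm, Mthfd2 and Mthfd1l rose 1.91-fold and 1.97-fold, while Shmt2, Mthfd2l and Aldh1l2 did not pass. In the cytosolic arm, Mthfd1 rose 1.38-fold and Shmt1 did not pass. In serine synthesis, the first enzyme Phgdh and the last enzyme Psph rose 1.51-fold and 1.32-fold, and Psat1 between them did not pass. The 2 groups of libraries did not overlap for 7 of the 10 enzymes, against 61.0% of all genes tested, so that a count of this kind is close to the background.

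**Figure D1:**
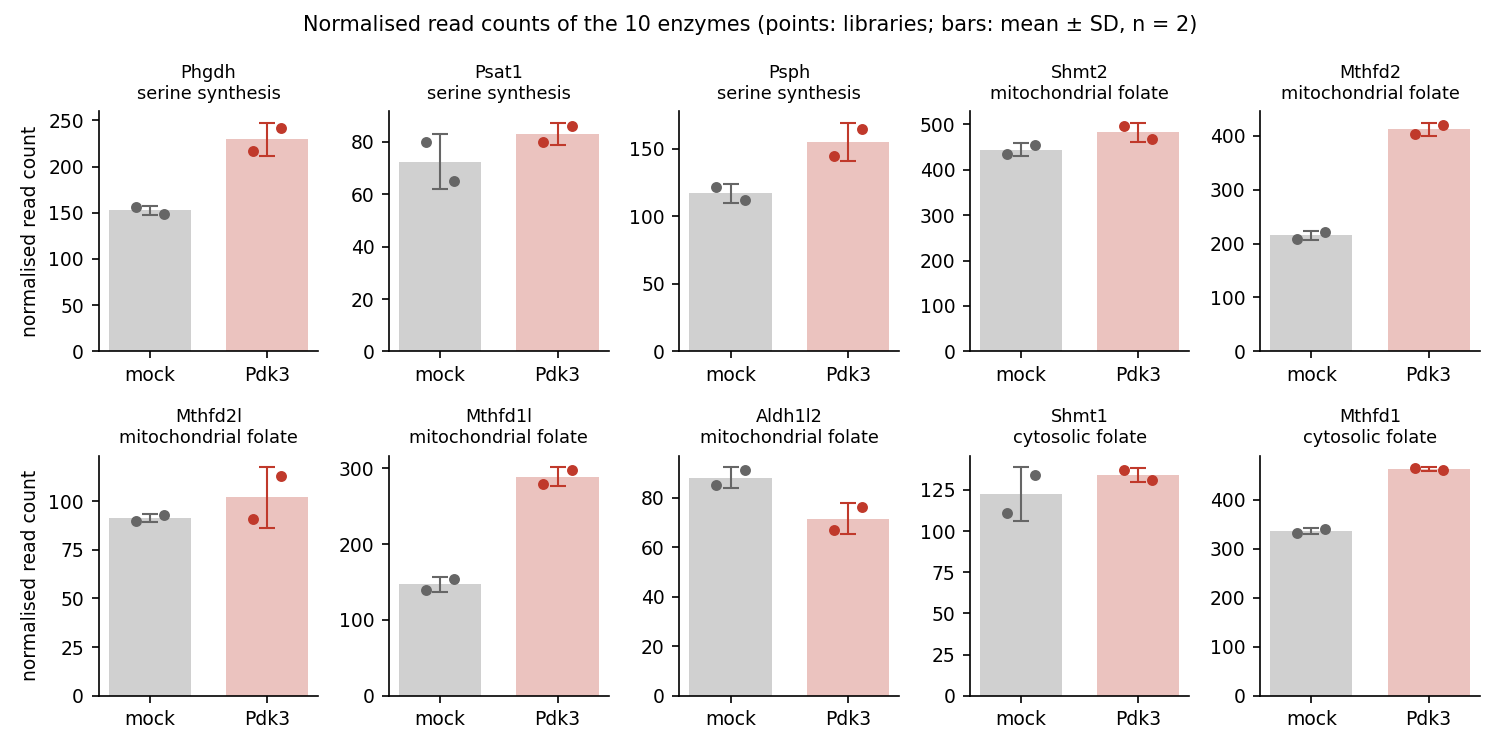
Normalised read counts (linear axes from 0) of the 10 enzymes, 1 panel per gene with its arm, in mock (grey) and Pdk3 (red) libraries. Points are libraries, bars are means and error bars are SDs over 2 libraries. Mthfd2 and Mthfd1l show the widest gaps, from means of 215 and 147 to 411.5 and 289.

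In the mitochondrial arm, Mthfd2 (ENSRNOG00000010833, rn6 chromosome 4, 115004448 to 115015965, minus strand) encodes the dehydrogenase and cyclohydrolase that is typical of embryonic and dividing cells. Its normalised counts were 209 and 221 in the mock libraries and 403 and 420 in the Pdk3 libraries. Both Pdk3 libraries lay far above both mock libraries. Group means were 215.0 ± 8.5 and 411.5 ± 12 (SD, n = 2 in each group), for a log2 fold change of 0.93 ± 0.05 (SE; limma adjusted p = 3.72e-05), on the scale of log2(normalised count + 1) used throughout. This was the smallest p among the 10 enzymes, and the log2 fold change stood at the 98.5th percentile of all genes tested.

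Mthfd1l (ENSRNOG00000019582, chromosome 1, 40529045 to 40719391, plus strand) encodes the mitochondrial formate-releasing synthetase. It had counts of 140 and 154 in mock and of 280 and 298 with Pdk3, again with no overlap. The mean went from 147.0 ± 9.9 to 289.0 ± 12.7, or 0.97 ± 0.07 on the log2 scale (limma adjusted p = 0.000124). Mthfd1l and Mthfd2 act at successive steps, and their log2 fold changes differed by less than their standard errors.

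Shmt2 (ENSRNOG00000008106, chromosome 7, 70824715 to 70829815, minus strand), which feeds the arm from serine, had counts of 434 and 455 in mock and 497 and 468 with Pdk3. The groups did not overlap, but the difference was small, with a log2 fold change of 0.12 (95% interval 0.01 to 0.22, limma adjusted p = 0.102). Mthfd2l (ENSRNOG00000021347, chromosome 14, 18640277 to 18720357, minus strand), the isoform of Mthfd2 found also in adult tissues, had counts of 90 and 93 in mock and 91 and 113 with Pdk3. Only Pdk3 2 stood apart, and the log2 fold change of 0.15 had a 95% interval of -0.14 to 0.43 (adjusted p = 0.435). Aldh1l2 (ENSRNOG00000008586, chromosome 7, 26375866 to 26425108, plus strand), which removes one-carbon units by oxidation, was the one enzyme with lower counts, 85 and 91 in mock against 67 and 76 with Pdk3. Its log2 fold change was -0.30 (95% interval -0.57 to -0.03, adjusted p = 0.110). When values were rescaled to bring the median of ribosomal protein genes level between groups, it was -0.37 and passed the threshold (adjusted p = 0.0477).

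In the cytosolic arm, Mthfd1 (ENSRNOG00000005602, chromosome 6, 99282850 to 99350340, plus strand) had counts of 332 and 341 in mock and 466 and 461 with Pdk3. The libraries of each group were nearly alike and the groups were well apart. The mean rose from 336.5 ± 6.4 to 463.5 ± 3.5, by 0.46 ± 0.04 on the log2 scale (limma adjusted p = 0.000264). Shmt1 (ENSRNOG00000005275, chromosome 10, 47031050 to 47059216, minus strand) had counts of 111 and 134 in mock and 137 and 131 with Pdk3, so that Mock 2 lay within the Pdk3 range. Its log2 fold change of 0.13 had a 95% interval of -0.11 to 0.38 (adjusted p = 0.405).

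In serine synthesis, Phgdh (ENSRNOG00000019328, chromosome 2, 200484246 to 200513564, minus strand), which commits 3-phosphoglycerate to serine, had counts of 156 and 149 in mock and 217 and 242 with Pdk3. The mean rose from 152.5 ± 5.0 to 229.5 ± 17.7, by 0.58 ± 0.08 on the log2 scale (limma adjusted p = 0.00172, and 0.0554 without a filter on low values). Psph (ENSRNOG00000000925, chromosome 12, 30514112 to 30526557, plus strand), which releases serine from phosphoserine, had counts of 122 and 112 in mock and 145 and 165 with Pdk3. Its log2 fold change was 0.40 ± 0.10 (adjusted p = 0.0215), and the call ended without a filter on low values (0.122) and without an intensity trend (0.0945). Psat1 (ENSRNOG00000013971, chromosome 1, 233124092 to 233145941, minus strand), the aminotransferase between them, had counts of 80 and 65 in mock and 80 and 86 with Pdk3. The groups touched at 80, and the log2 fold change of 0.20 had a 95% interval of -0.11 to 0.51 (adjusted p = 0.326), which includes the value of Psph. RefSeq lists 6 copies of Phgdh and 1 each of Psat1, Shmt2 and Mthfd1 under pseudogene names, and how reads shared with them were counted is not given in the sources used here. No other gene of the table overlapped the coordinates of an enzyme (0 overlaps).

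**Figure D2:**
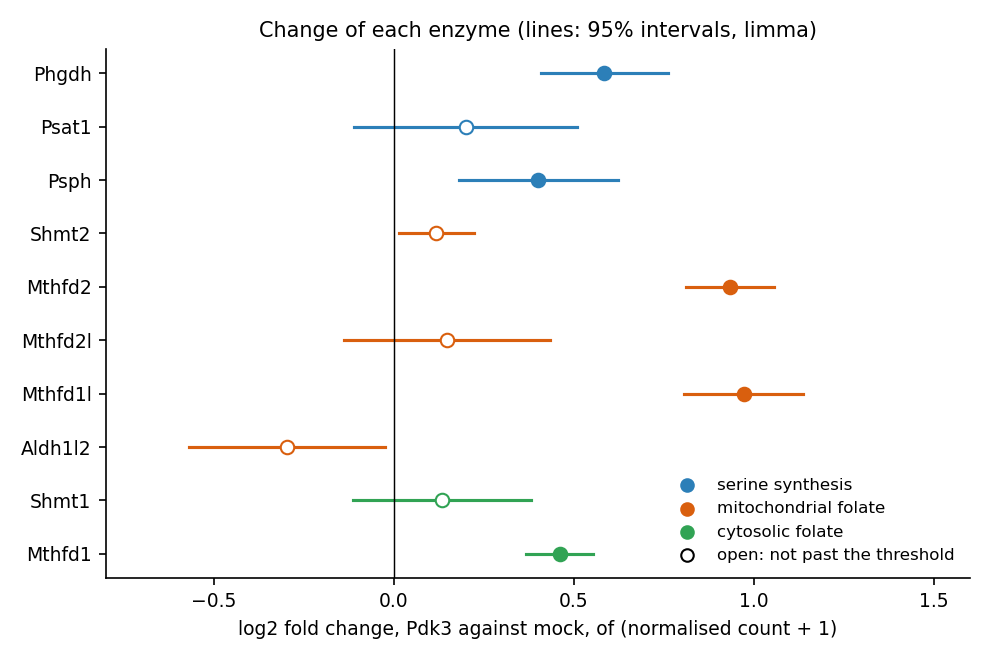
Log2 fold changes, Pdk3 against mock, of the 10 enzymes, with 95% intervals from limma (lines) and colours for serine synthesis, mitochondrial folate and cytosolic folate. Filled points passed the threshold (Phgdh, Psph, Mthfd2, Mthfd1l and Mthfd1), and Mthfd2 and Mthfd1l stand apart at 0.93 and 0.97.

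A floor at counting noise was also tried, in which a gene keeps limma's p unless an exact binomial test of its reads gives a larger one. The same 5 enzymes were called there, against 8.37% of all genes called higher. With all 4 libraries, 7 of the 10 enzymes had an unadjusted p under 0.05 (limma), as had 4671 of the 12838 genes tested. With 1 library left out, a group holds a single library, and only the size of a change is given here. Without Pdk3 2, for example, the log2 fold changes of Mthfd2 and Mthfd1l were 0.90 and 0.93.

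The sequences upstream of 4 genes are shown because they pair the 2 steps that rose most in mitochondria with an isoform and a cytosolic enzyme that did not pass. RefSeq promoter windows on build GRCr8 matched 8 of the 10 enzymes, all but Mthfd1 and Aldh1l2. Each line gives the 200 bases before the annotated start, 5′ to 3′ on the strand of the gene. Capitals mark matches, on either strand, to the motifs named in the sentences that follow.
Mthfd2, chr4:117380351-117380550, minus strand: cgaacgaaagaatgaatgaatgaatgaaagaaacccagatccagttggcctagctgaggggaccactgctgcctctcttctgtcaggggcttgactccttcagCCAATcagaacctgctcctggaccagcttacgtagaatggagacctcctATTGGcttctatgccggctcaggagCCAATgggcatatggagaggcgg
Mthfd1l, chr1:42849224-42849423, plus strand: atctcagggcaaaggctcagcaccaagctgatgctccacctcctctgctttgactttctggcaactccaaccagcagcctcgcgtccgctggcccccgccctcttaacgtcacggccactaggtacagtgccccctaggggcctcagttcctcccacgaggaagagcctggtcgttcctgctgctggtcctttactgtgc
Mthfd2l, chr14:17454221-17454420, minus strand: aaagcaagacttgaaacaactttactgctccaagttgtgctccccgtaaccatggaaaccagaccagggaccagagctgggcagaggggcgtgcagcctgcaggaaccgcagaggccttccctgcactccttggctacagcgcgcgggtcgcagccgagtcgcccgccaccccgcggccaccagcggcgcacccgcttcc
Shmt1, chr10:45990342-45990541, minus strand: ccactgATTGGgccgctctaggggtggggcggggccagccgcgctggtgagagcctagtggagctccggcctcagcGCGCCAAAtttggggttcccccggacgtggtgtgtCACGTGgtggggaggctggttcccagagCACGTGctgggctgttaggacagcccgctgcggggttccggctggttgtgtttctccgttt
In the 250 bases before the start, the Mthfd2 window holds CCAAT, the letters bound by nuclear factor Y, 3 times. They begin 97, 48 and 23 bases before the start, the middle one on the opposite strand. The same word was also found upstream of Psat1, Phgdh and Shmt1, thus in 4 of 8 enzymes, against 34.0% of all 33469 promoter windows. The Shmt1 window holds the E-box CACGTG, which MYC and related factors bind, at 89 and 61 bases before the start, and 5.59% of all windows hold this word. It also holds TTTGGCGC on the opposite strand at 124 bases, 1 of 4 E2F-type words searched together (TTTCGCGC, TTTGGCGC, TTTCCCGC and TTTGCCGC) that 1.73% of all windows contain. E-boxes and E2F-type words were in 1 of 8 enzyme windows, that of Shmt1, whose count did not pass the test. The amino acid response word TGATGCAA and the cyclic AMP response word TGACGTCA were in 0 of 8 enzyme windows, and in 0.693% and 1.59% of all windows. These are matches of letters in a short window.

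The arms were compared through the ratio of paired enzymes in each library, 6 pairs in all. Because read counts were not divided by transcript length, only the change of a ratio between groups is compared, not its level. The first test divided every gene by the same partner and fitted limma to the whole table. There all genes share the partner's deviations, so that they are not independent of one another. The variances are then drawn strongly together, with 39.07 or infinite prior degrees of freedom against 5.56 in the main fit. The p-values and intervals of the ratio fits rest on that prior. A second p is therefore given from the errors of the main fit, taken as independent and adjusted over the 6 pairs (chosen after seeing the data). By exact permutation of the 4 libraries, 2 against 2, the smallest p possible is 0.333, and 5 of the 6 pairs reached it.

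The ratio of Mthfd2 to Mthfd1, mitochondrial against cytosolic, was 0.629 and 0.648 in the mock libraries and 0.865 and 0.911 in the Pdk3 libraries. The mitochondrial enzyme thus rose more than the cytosolic one, with a log2 change of the ratio of 0.47 ± 0.06 (limma adjusted p = 2.42e-09, and 0.000741 with errors of the main fit). The ratio of Mthfd1l to Mthfd1 likewise went from 0.422 and 0.452 to 0.601 and 0.646, a log2 change of 0.51 ± 0.08 (limma adjusted p = 7.14e-08, and 0.000921 with errors of the main fit). In the fit against Mthfd1, 2.56% of all genes were called higher and 83.8% lower, since Mthfd1 itself rose. The ratio of Mthfd2l to Mthfd1, 0.271 and 0.273 in mock and 0.195 and 0.245 with Pdk3, fell by 0.31 on the log2 scale (adjusted p = 0.0177, and 0.0649 with errors of the main fit), as most genes did. The log2 change ran from -0.48 to -0.15 with each library left out, the latter without Pdk3 1.

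For the serine hydroxymethyltransferases, no shift between the arms passed the test. The ratio of Shmt2 to Shmt1 was 3.91 and 3.396 in mock and 3.63 and 3.57 with Pdk3, and the Pdk3 values lay between those of mock. The log2 change was -0.02 with a 95% interval of -0.37 to 0.34 (limma adjusted p = 0.972), against 4.20% of all genes called in either direction relative to Shmt1. The SE was 0.18 with all libraries, and the log2 change ran from -0.12 to 0.08 with each library left out. Within mitochondria, the ratio of Mthfd2 to its isoform Mthfd2l rose from 2.32 and 2.38 to 4.43 and 3.72, a log2 change of 0.79 ± 0.20 (limma adjusted p = 0.00631, and 0.000921 with errors of the main fit), against 1.85% of all genes called higher relative to Mthfd2l. The log2 change was 0.77 without Mock 1, 0.80 without Mock 2, 0.66 without Pdk3 1 and 0.91 without Pdk3 2. Aldh1l2 was compared with Aldh1l1, the cytosolic 10-formyltetrahydrofolate dehydrogenase, which had counts of only 10 and 10 in mock and 11 and 9 with Pdk3. Their ratio, 8.5 and 9.1 against 6.09 and 8.44, had a log2 change of -0.29 with a 95% interval of -0.70 to 0.11 (limma adjusted p = 0.839, with 4.23% of all genes called relative to Aldh1l1). With errors of the main fit the interval was -1.03 to 0.45 (adjusted p = 0.464).

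**Figure D3:**
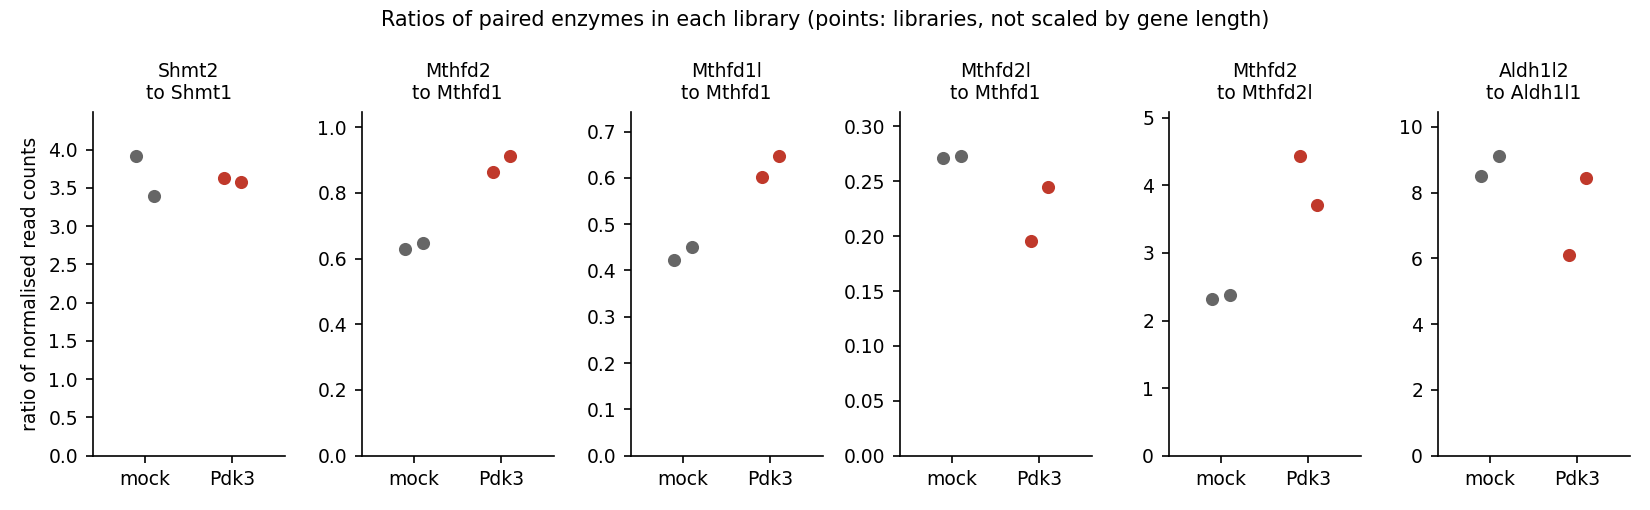
Ratio of normalised read counts (linear axes from 0, not scaled by gene length) of 6 pairs of enzymes, 1 panel per pair. Each point is 1 library, mock in grey and Pdk3 in red. The Pdk3 points lie above the mock points for Mthfd2 to Mthfd1 (0.865 and 0.911 against 0.629 and 0.648) and within the mock points for Shmt2 to Shmt1.

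Of 7 tested genes of folate uptake, retention and reduction that are described here, 0 passed in either direction (limma; 2 had an unadjusted p under 0.05, and 0 passed with the floor at counting noise), and 1 was lower with ribosomal protein genes level. Their median log2 fold change was -0.09, against -0.01 over all genes tested. Slc19a1, the reduced folate carrier of the cell surface, had counts of 292 and 288 in mock and 315 and 319 with Pdk3 (limma adjusted p = 0.0834). Qdpr, which regenerates tetrahydrobiopterin, had 207 and 226 in mock and 231 and 232 with Pdk3 (adjusted p = 0.314). Slc25a32, the mitochondrial folate carrier, is named for its role and had counts of 146 and 148 in mock and 141 and 135 with Pdk3 (adjusted p = 0.429).

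Of 11 genes whose products use or dispose of one-carbon folates, 2 rose and 1 fell, against 11.7% and 11.3% of all genes. Their median log2 fold change was 0.01. Tyms, the thymidylate synthase, rose from 245 and 236 to 316 and 306 (log2 fold change 0.37 ± 0.05, limma adjusted p = 0.00243). Gart, a trifunctional enzyme of purine synthesis that uses 10-formyltetrahydrofolate, had 391 and 402 in mock and 453 and 440 with Pdk3 (0.17, adjusted p = 0.0203, and 0.0838 floored at counting noise). Mthfs, which salvages 5-formyltetrahydrofolate, was the lower one with 167 and 167 against 144 and 137 (-0.25, adjusted p = 0.0450, 0.145 floored at counting noise and 0.0635 with a replicate block). With ribosomal protein genes level, 1 of this list was higher and 3 lower, and the share lower is near the 23.1% of all genes lower under that scaling.

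In mitochondrial glycine cleavage and choline oxidation, 4 of 8 genes were tested, 0 rose and 1 fell (11.7% and 11.3% of all genes). Sardh, which oxidises sarcosine and yields a one-carbon folate, fell to 510 and 498 from 582 and 582 in mock (log2 fold change -0.21 ± 0.03, limma adjusted p = 0.00439, and 0.0691 without an intensity trend). Gldc, the glycine decarboxylase of the cleavage system, had counts of 3 and 8 in mock and 6 and 8 with Pdk3 and was too low to test. In the methionine cycle, 3 of 7 tested genes rose and 0 fell (11.7% and 11.3% of all genes), with a median of -0.01. They were Amd1 (log2 fold change 0.20), which opens polyamine synthesis from S-adenosylmethionine, Ahcy (0.16), which clears S-adenosylhomocysteine, and Mat2a (0.12), which makes S-adenosylmethionine. With ribosomal protein genes level, the calls of Ahcy and Mat2a ended (adjusted p = 0.158 and 0.365), and 1 gene of that list was higher and 2 lower (23.1% of all genes were lower there).

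Of 8 tested serine and glycine transporters, 2 rose and 0 fell (11.7% and 11.3% of all genes), with a median of 0.01. Slc1a4, a neutral amino acid exchanger that carries serine, had counts of 347 and 347 in mock and 459 and 445 with Pdk3 (log2 fold change 0.38 ± 0.04, limma adjusted p = 0.000641). Sfxn1, a carrier that brings serine into mitochondria, had 329 and 329 in mock and 393 and 384 with Pdk3 (0.24 ± 0.04, adjusted p = 0.00617, and 0.0573 without an intensity trend). With ribosomal protein genes level, 2 of the list were higher and 2 lower, the latter again a share near that of all genes (23.1%). Of 9 tested genes of other serine use and breakdown, 0 passed in either direction (limma; 1 had an unadjusted p under 0.05, 0 passed with the floor at counting noise, and the median was 0.03). Those of highest count were the seryl-tRNA synthetase gene Sars, with 653 and 639 against 694 and 682, and Ptdss2, a phosphatidylserine synthase, with 544 and 547 against 541 and 593.

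Of 8 genes listed around lower glycolysis, which makes and consumes 3-phosphoglycerate, 1 rose and 0 fell, with a median of 0.07. Among all genes, 11.7% rose and 11.3% fell, so the count of 1 is at the background. The list includes Pgam5, a mitochondrial protein phosphatase rather than a glycolytic enzyme, which did not pass (log2 fold change 0.20, limma adjusted p = 0.0932). Pgam1, the mutase that draws 3-phosphoglycerate away from serine synthesis, had counts of 913 and 899 in mock and 997 and 984 with Pdk3. Its log2 fold change of 0.13 (limma adjusted p = 0.0104) no longer passed with ribosomal protein genes level (0.143).

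**Figure D4:**
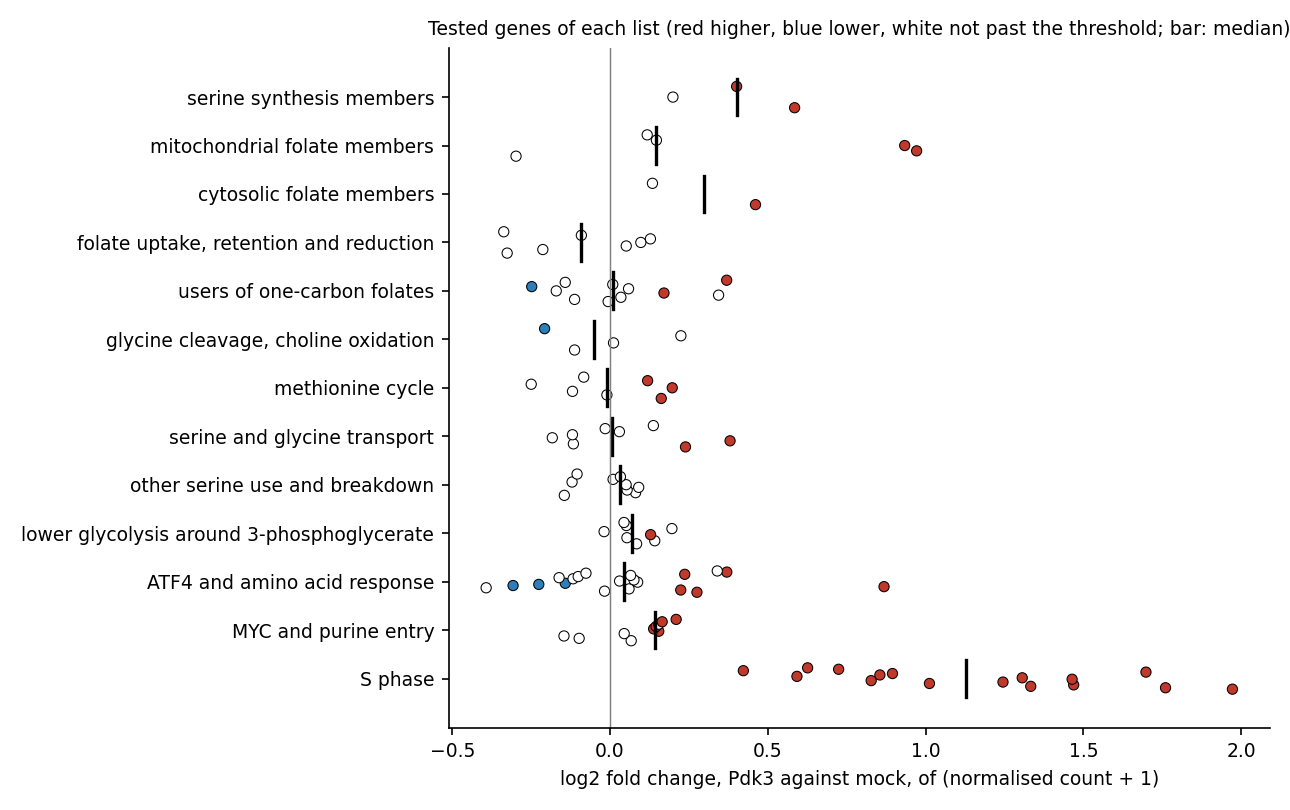
Log2 fold changes, Pdk3 against mock, of each tested gene of the lists (points) with the median of each list (bar). Red points were higher and blue points lower past the threshold, white points did not pass. The points shown for folate uptake, retention and reduction lie between -0.34 and 0.13, and all 16 S phase genes lie to the right, between 0.42 and 1.97.

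ATF4, a transcription factor of the amino acid response, is known to induce PHGDH, PSAT1, PSPH, SHMT2, MTHFD2 and ALDH1L2 in many cells. Of 20 tested genes of that response, 5 rose and 3 fell (11.7% and 11.3% of all genes), with a median of 0.05. With ribosomal protein genes level, 5 rose and 6 fell, against 7.26% and 23.1% of all genes. Atf4 rose from 511 and 505 to 592 and 595 (log2 fold change 0.22 ± 0.03, limma adjusted p = 0.00276, and 0.0595 without an intensity trend). Chac1, a glutathione-degrading enzyme, rose from 51 and 47 to 98 and 83, and Slc7a5, a leucine transporter, from 315 and 338 to 420 and 424, with log2 fold changes of 0.87 and 0.37 (adjusted p = 0.00373 and 0.00171). The stress factor Ddit3 fell by 0.31 and the heme-regulated kinase gene Eif2ak1 by 0.14 on the log2 scale (adjusted p = 0.0187 and 0.0176, that of Eif2ak1 0.106 floored at counting noise). The enzymes named above as induced by ATF4 ran from Mthfd2 at 0.93 to Aldh1l2 at -0.30. The part of ATF4 in the values of the enzymes was not tested.

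MYC is also known to drive serine and folate enzymes. Of 10 tested genes of the MYC network and purine entry, 5 rose and 0 fell (11.7% and 11.3% of all genes), with a median of 0.14. Ppat, which opens purine synthesis, had a log2 fold change of 0.21, the nucleolar gene Ncl of 0.15 and Nolc1 of 0.14 (limma adjusted p = 0.00638, 0.00521 and 0.0124). With ribosomal protein genes level, 1 of the list rose and 2 fell (7.26% and 23.1% of all genes), and the calls of Ncl and Nolc1 ended (0.05002 and 0.128). Myc itself, named for its role, had counts of 270 and 288 in mock and 258 and 246 with Pdk3 (log2 fold change -0.15, adjusted p = 0.110). The part of MYC in the values of the enzymes was likewise not tested.

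Genes of S phase were higher with Pdk3 as well. All 16 of 16 tested passed, against 11.7% of all genes, and all 16 with ribosomal protein genes level, against 7.26%. Their median log2 fold change was 1.13, and their summed counts were 4407 and 4459 in mock and 8741 and 8873 with Pdk3. The DNA polymerase subunit gene Pole and the helicase genes Mcm5 and Mcm6 had log2 fold changes of 1.70, 1.46 and 1.31. Dividing cells use thymidylate and purines, and Tyms is itself a gene of S phase by common usage. The part that the share of dividing cells has in the rise of Mthfd2, Mthfd1l, Mthfd1, Phgdh and Psph was not tested. In bulk RNA, more cells of a kind and more RNA per cell cannot be told apart.

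The genes whose values over the 4 libraries lay closest to those of Mthfd2 were Kif20b, Nova1 and Tedc1, out of 10582 with a mean count of at least 50. The likeness was the distance between log2 values centred on each gene's mean, and it was 0.04, 0.04 and 0.06. Kif20b, a kinesin of cytokinesis, had counts of 267 and 283 in mock and 499 and 533 with Pdk3. Nova1, a splicing factor, had 44 and 46 against 84 and 91, and Tedc1, a centriole protein, 66 and 73 against 127 and 135. With 2 groups of 2 libraries, 21 genes lay within 0.1 of Mthfd2.

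Depth was close between groups, and markers of cell types moved in part. Normalised counts summed to 4448199 to 4476649 per library, and multiplied back by estimated scaling factors they correspond to 4139557 to 4707141 reads in genes, fewer in the Pdk3 libraries. Cardiomyocyte markers were present in all libraries, with summed counts of 19502 and 19309 in mock and 20092 and 19784 with Pdk3 over 9 genes, 4 of them higher and 1 lower. Fibroblast markers (8 genes, 0 higher and 1 lower) summed to 5764 and 5679 against 5668 and 5541, and smooth muscle markers (6 genes, 3 higher and 0 lower) to 3171 and 3214 against 3628 and 3583. Endothelial markers (6 genes, 0 higher and 2 lower) summed to 979 and 1039 against 944 and 921, and macrophage markers (10 genes, 0 higher and 5 lower) to 1728 and 1648 against 1426 and 1367. With ribosomal protein genes level the calls moved downward, to 0 higher and 2 lower for cardiomyocyte markers, 0 and 5 for fibroblast, 0 and 3 for endothelial and 0 and 6 for macrophage markers, while those of smooth muscle stayed at 3 and 0. Under that scaling 7.26% of all genes were higher and 23.1% lower, against 11.7% and 11.3% in the main fit. None of these markers was at 0 in a library. Their part in the values of the enzymes was not tested.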

How the data were processed

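The authors deposited 1 table of normalised read counts per gene for 4 libraries, used here as a score because they had been scaled to one another and then rounded, and so are no raw counts. Per the submitters' processing notes, the tools were FastQC, Trimmomatic 0.39, STAR 2.6.1d, featureCounts 1.6.5 of Subread and DESeq2 1.26.0, with build rn6. The sources used here do not state the strand setting, the treatment of reads with several alignments or of duplicates, or how genes were filtered. Per the labels' protocols, 1 µg of total RNA went into a stranded mRNA library. Library totals differed by 0.64%. Scaling factors were estimated from whole numbers skipped or doubled at regular steps (0.925 to 1.06).

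From these values log2(value + 1) was tested with limma 3.58.1 in R 4.3.3 (lmFit, eBayes with an intensity trend, two-sided, Benjamini-Hochberg over 12838 genes, threshold 0.05), with group as the single term, 2 residual degrees of freedom and 5.56 prior ones. In the ratio fits the prior degrees of freedom were 39.07 against Mthfd1 and infinite against Shmt1, Mthfd2l and Aldh1l1. SDs cover the spread of 2 libraries. The SEs and intervals of log2 changes rest on limma's variances, which are drawn toward those of other genes. Genes entered when 2 or more libraries had a value of 10 or more. The script was tested on simulated data with counting noise alone, a test that does not cover scatter between cultures. Enzymes and lists were chosen with earlier results of these data known. Named genes are the 10 enzymes, for each list at most 3 called genes of the commoner direction and at most 2 of the rarer one, ordered by p, or the 2 of highest mean where none passed, and the 3 nearest to the enzyme with the smallest p. Genes named for their roles or low counts (Slc25a32, Gldc, Myc), the ratio partner Aldh1l1 and Pgam5 fall outside this rule. In the list of folate uptake, retention and reduction, 1 gene is not reported here and is left out of the list's counts, median and plot. Other settings tried were TMM scaling of the values, level ribosomal protein genes (67 genes), a replicate block, leaving out each library, no filter, a minimum of 50, pseudocounts of 0.5 and 8, a floor at counting noise, a threshold of 0.01 and limma with no intensity trend. Motifs were searched in RefSeq promoter windows (GRCr8) with Python 3.11.15.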

Additional observations from a re-analysis of the deposited data

How the results depend on the processing

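The count of 5 enzymes higher stayed at 5 under the replicate block, TMM scaling, level ribosomal protein genes, a minimum of 50, both pseudocounts and the floor at counting noise. It was 4 without an intensity trend and at a threshold of 0.01, where Psph no longer passed. It was 3 without a filter on low values, where Phgdh and Psph no longer passed. A fit with 1 library left out has 1 residual degree of freedom. It takes the lone library of a group to vary like the other group, and no count is given for it. Among all 12838 genes tested, 1496 were higher in the main fit, 526 without an intensity trend and 766 at a threshold of 0.01. Higher genes numbered 1374 with the replicate block, 1843 with TMM scaling, 932 with level ribosomal protein genes and 1075 with the floor. Pseudocounts of 0.5 and 8 gave 1493 and 1538, and a minimum of 50 gave 1717 of 10689 genes. Without a filter on low values, 558 of 16290 genes were higher. The count of enzymes lower was 0, and 1 (Aldh1l2) with ribosomal protein genes level, a scaling that moved the median of all genes to -0.08. No enzyme that passed changed sign under any of these alternatives. The shared replicate numbers are not stated to pair the libraries, and the deviations of same-numbered libraries correlated at 0.04 across genes. With the replicate block 5 enzymes were higher and 0 lower. Of ratios, the log2 change of Mthfd2l to Mthfd1 (-0.31) no longer passed without a filter (adjusted p = 0.0834), without an intensity trend (0.0794) or with errors of the main fit (0.0649). It ran from -0.48 to -0.15 with each library left out. The log2 change of Mthfd2 to Mthfd2l (0.79) ran from 0.66 to 0.91 there, and that of Shmt2 to Shmt1 (-0.02) from -0.12 to 0.08. By exact permutation, the changes of 0.47 (Mthfd2 to Mthfd1), 0.51 (Mthfd1l to Mthfd1), -0.31 and 0.79 had p = 0.333, the smallest 2 libraries against 2 can give. Among the other named genes of the one-carbon, amino acid response and MYC lists, the calls of Gart, Mthfs, Sardh, Mat2a, Ahcy, Amd1, Sfxn1, Pgam1, Atf4, Ddit3, Eif2ak1, Slc7a5, Ppat, Ncl and Nolc1 ended without an intensity trend. Without a filter those of Gart, Mthfs, Mat2a, Ahcy, Pgam1, Ddit3, Chac1, Slc7a5, Ppat and Nolc1 ended, as did those of Gamt and Gcat under both settings. With the floor at counting noise those of Gart, Mthfs, Mat2a, Ahcy, Eif2ak1 and Gamt ended. In the cases with small changes or low counts, 2 libraries a group limit what can be detected.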

Other observations

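Beside the lists of the report, the deposited table assigns genes to a pathway term for glycine, serine and threonine metabolism. Of its 19 tested genes other than the 10 enzymes, 2 rose and 3 fell with Pdk3 (limma, median log2 fold change -0.11). Among all genes tested, 11.7% rose and 11.3% fell, so these counts are close to the background. The 2 steps of creatine synthesis, which joins glycine with arginine and then methylates the product, stood in opposite directions. Gatm, the amidinotransferase of the first step, rose from 438 and 458 to 606 and 602, by 0.43 ± 0.04 on the log2 scale (limma adjusted p = 0.000255). Gamt, the methyltransferase of the second step, had counts of 66 and 79 in mock and 53 and 50 with Pdk3, a log2 fold change of -0.48 ± 0.14 (adjusted p = 0.0445, 0.0578 floored at counting noise and 0.0593 with the replicate block). Gcat, a mitochondrial enzyme that forms glycine from threonine, fell from 73 and 70 to 37 and 47 (-0.76 ± 0.16, adjusted p = 0.0122, and 0.0675 without an intensity trend). These 3 genes were named after their values were seen.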
